A study of Mus musculus with 2 samples.

Results

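The tumour suppressor p53, encoded by *Trp53*, was examined with 9 genes of its network in a cultured melanoma line derived from dormant cells and its maternal line. The 9 genes are its inhibitors *Mdm2*, *Mdm4* and *Ccng1*, the apoptosis genes *Bax*, *Bbc3* and *Pmaip1*, and the stress response genes *Trp53inp1*, *Sesn1* and *Gadd45a*. These 10 genes were chosen by name, and every probe on the arrays that is not a control and carries one of these names was taken, which gave 19 of 41174 probes and 10 of 27790 genes or transcripts. RNA of B16F1-GFP-D was compared with RNA of B16F1-GFP-M on 2 Agilent 2-colour arrays for mouse transcripts, on which both RNAs bind to the same spots in different dyes. The dye Cy5 marked B16F1-GFP-M on array 1 and B16F1-GFP-D on array 2, with Cy3 for the other line. Both lines are GFP-expressing descendants of B16F1, a murine melanoma line from C57BL/6 mice, and both were grown in DMEM with serum and antibiotics and left untreated. B16F1-GFP-M is the maternal, non-dormant line that the mice received. B16F1-GFP-D descends from dormant disseminated melanoma cells, that is, GFP+ cells sorted from pooled organs of tumour-free mice, immunised and control, 1 year after challenge, and grew from 1 colony, so that it stands for 1 clone. Separate cultures or extracts are not named in the labels. The arrays therefore count as 1 replicate per line, the lines were not tested against each other, and the standard deviation (SD) given with each value covers only the difference between the 2 arrays.

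In unstressed cells p53 is kept scarce by Mdm2, which attaches ubiquitin to it, and is held inactive by the related protein Mdm4. DNA damage and other stresses release it, and p53 then binds DNA as a tetramer and turns on genes for cell cycle arrest, DNA repair, metabolic adaptation and apoptosis, as well as *Mdm2* itself, which closes a feedback loop. Since p53 is controlled mostly at the level of protein, its mRNA and its activity need not move together, and only mRNA was measured here.

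A p53 binding site consists of a pair of half-sites with a known consensus, a pattern that reads the same on both strands. This half-site consensus was searched in windows from 250 bases before to 50 bases after the annotated starts of genes (RefSeq, GRCm38.p6). It was found in 8.36% of all 32851 windows and for 9.55% of the 27025 genes that have one. Of the 10 genes, 8 have such a window, and 6 of these held a half-site: *Trp53*, *Mdm2*, *Ccng1*, *Bax*, *Sesn1* and *Gadd45a*. The windows of *Mdm4* and *Bbc3* held none, and *Trp53inp1* and *Pmaip1* were not searched. The part upstream of the start is shown for 4 genes that are known p53 targets and that span the range of ratios given below, with the half-site in capitals. Such a match is a description of the letters and not a sign of binding, and known p53 sites of several of these genes lie in introns, outside these windows.
Gadd45a promoter, chr6:67037408-67037657, minus strand: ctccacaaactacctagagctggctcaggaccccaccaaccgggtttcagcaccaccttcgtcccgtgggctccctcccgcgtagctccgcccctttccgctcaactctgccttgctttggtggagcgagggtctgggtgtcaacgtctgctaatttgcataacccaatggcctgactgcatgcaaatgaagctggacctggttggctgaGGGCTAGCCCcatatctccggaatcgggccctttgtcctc
Mdm2 promoter, chr10:117710759-117711008, minus strand: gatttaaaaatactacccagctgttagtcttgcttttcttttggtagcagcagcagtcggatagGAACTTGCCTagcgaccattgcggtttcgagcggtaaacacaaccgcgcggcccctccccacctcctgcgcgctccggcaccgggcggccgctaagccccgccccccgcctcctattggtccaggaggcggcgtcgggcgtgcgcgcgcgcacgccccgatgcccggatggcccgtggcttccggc
Ccng1 promoter, chr11:40755287-40755536, minus strand: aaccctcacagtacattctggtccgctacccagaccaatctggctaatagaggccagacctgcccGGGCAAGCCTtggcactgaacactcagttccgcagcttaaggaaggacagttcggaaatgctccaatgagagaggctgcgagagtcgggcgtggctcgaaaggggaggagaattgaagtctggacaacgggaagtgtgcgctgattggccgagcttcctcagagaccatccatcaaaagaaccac
Sesn1 promoter, chr10:41887189-41887438, plus strand: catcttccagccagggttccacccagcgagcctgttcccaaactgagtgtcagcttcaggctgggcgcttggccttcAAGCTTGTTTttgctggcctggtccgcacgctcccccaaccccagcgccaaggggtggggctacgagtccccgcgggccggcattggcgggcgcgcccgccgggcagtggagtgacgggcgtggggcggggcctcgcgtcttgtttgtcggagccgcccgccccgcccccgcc
The half-site began 40 bases upstream of the start in *Gadd45a*, 186 in *Mdm2*, 185 in *Ccng1* and 173 in *Sesn1*. *Sesn1* has a further annotated start, whose window held no half-site.

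The probes of *Trp53*, *Mdm2* and *Bax* shown next were each printed as 10 spots per array, so that they carry an error within the array as well as between arrays. Positions of probes were read from the array files and refer to the mouse build mm9.
Trp53 probe, chr11:69403134-69403193, plus strand: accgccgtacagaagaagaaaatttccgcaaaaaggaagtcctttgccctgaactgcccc
Mdm2 probe, chr10:117129725-117129784, minus strand: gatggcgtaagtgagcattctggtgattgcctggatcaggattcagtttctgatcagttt
Bax probe, chr7:52721469-52721624, minus strand: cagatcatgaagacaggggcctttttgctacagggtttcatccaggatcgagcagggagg
The genomic span of the *Bax* probe is longer than its 60 bases, so that it joins separate stretches of the gene.

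Of the 19 probes, 18 were well above background on both arrays for either line, and the single probe of *Pmaip1* was so in neither line. Each gene was read from its brightest probe. A gene was counted as detected where both arrays showed this probe well above background in 1 line or both, which held for 9 of the 10 genes and for 12539 genes in all. Values are log2 ratios with B16F1-GFP-D in the numerator, each taken between the lines on the same array. Levels are normalized log2 intensities, which can be compared between lines for 1 probe but not between probes. Overlap of levels is judged across both arrays and does not use the pairing of the lines on an array. Across all detected genes the median log2 ratio was -0.01 and the pooled SD between the arrays 0.15. All 7 melanocyte markers searched, among them *Tyr*, *Dct* and *Mlana*, were well above background in both lines. Their log2 ratios ran from -0.92 for *Mitf* to 0.30 for *Pmel*, with a median of -0.34, and none was called. Of 35 markers of fibroblasts, leukocytes, endothelial, epithelial, liver and neural cells on the arrays, 7 were detected: *Col1a2*, *Lyz2* and *Mbp* in both lines, *Cd3e*, *Cd68* and *Aqp4* in B16F1-GFP-D only and *Gfap* in B16F1-GFP-M only. These 7 had log2 ratios between -0.33 and 0.44. Those above background in 1 line only had -0.01 for *Cd3e*, 0.44 for *Cd68*, 0.25 for *Aqp4* and -0.09 for *Gfap*. Passing this limit in 1 line only therefore need not mark a difference between the lines. No marker of endothelial, epithelial or liver cells was detected, nor was the leukocyte marker *Ptprc*. In such bulk RNA, fewer cells of a kind and less RNA per cell cannot be told apart.

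A difference was called by its size, without a test, where both arrays showed at least 2-fold with 1 sign. *Gadd45a* and *Trp53inp1* were called lower in B16F1-GFP-D and none of the 9 detected genes was called higher. Under this rule 1.94% of all detected genes were lower and 3.09% higher. The calls of *Gadd45a* and *Trp53inp1* were lost with median centring in place of loess, a setting that left the arrays with medians of -0.86 and 1.03 over all detected genes and called 45 genes higher and 19 lower in all, against 387 and 243. Of the 9 genes, 6 were below 0 on both arrays (*Mdm2*, *Mdm4*, *Ccng1*, *Bbc3*, *Trp53inp1* and *Gadd45a*), against 42.8% of all detected genes. Only *Sesn1* was above 0 on both, against 41% of all detected genes. *Trp53* and *Bax* had opposite signs on the 2 arrays. The median over the 9 genes was -0.47, against -0.01 over all detected genes. With 1.5-fold as the limit, 4 of the genes were lower (*Mdm4* and *Bbc3* in addition) and *Sesn1* was higher, against 7.02% of all detected genes lower and 8.77% higher.

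**Figure D1:**
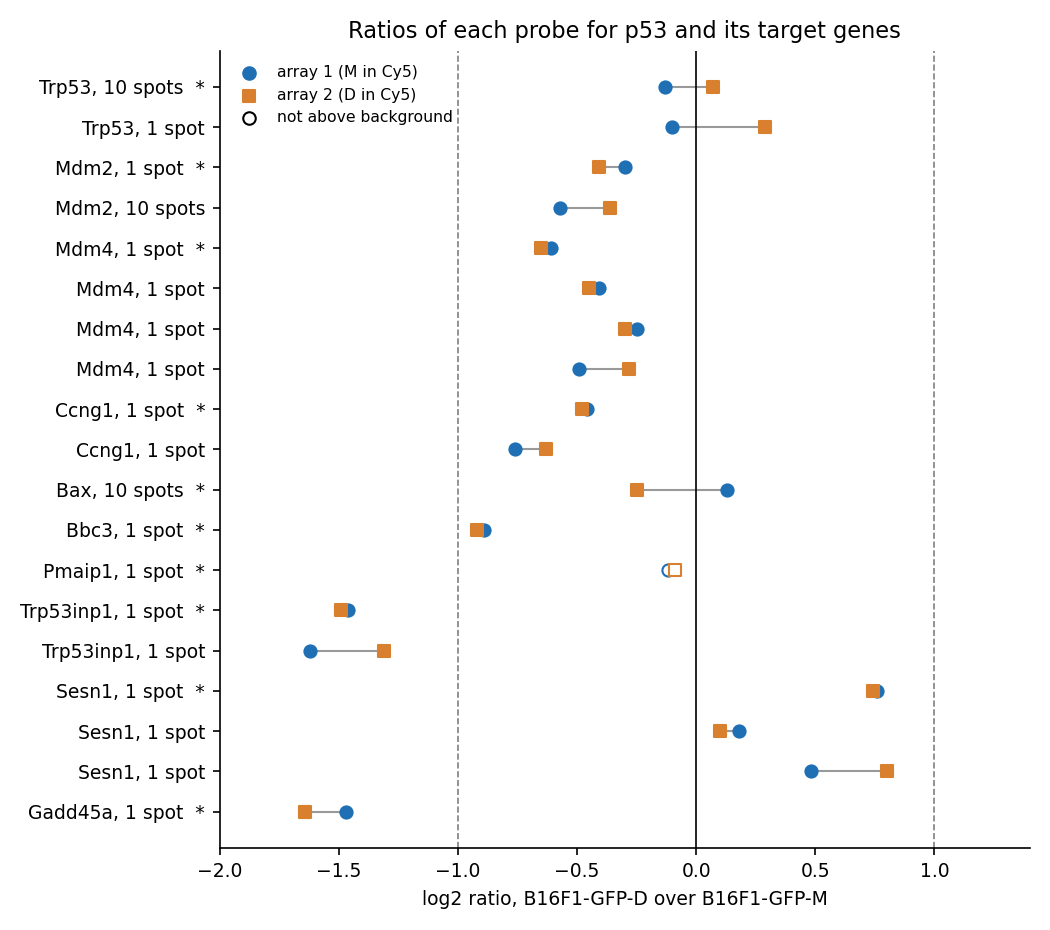
Log2 ratio, B16F1-GFP-D to B16F1-GFP-M (x axis), for each of the 19 probes (rows), on array 1 (circles) and array 2 (squares), joined by a grey line; an asterisk marks the brightest probe of a gene, open symbols a probe not above background, and dashed lines 2-fold. The probes of *Trp53inp1* and *Gadd45a* lie left of the 2-fold line on both arrays, those of *Mdm2*, *Mdm4*, *Ccng1* and *Bbc3* between it and 0, those of *Sesn1* right of 0, and those of *Trp53* and *Bax* on both sides of 0.

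*Trp53* mRNA differed between the lines by less than it did between the arrays. The level of its brighter probe was 9.05 on array 1 and 9.02 on array 2 in B16F1-GFP-M, and 8.92 and 9.09 in B16F1-GFP-D. The levels of the lines thus overlapped. The log2 ratio was -0.13 on array 1 and 0.07 on array 2, with a mean of -0.03 ± 0.14 (SD, 2 arrays), and 47.6% of all detected genes had a lower ratio. Within an array the 10 spots were close to each other, with an SD of 0.03 on either array. On array 1 they ran from -0.19 to -0.09, all below 0, and on array 2 from 0.02 to 0.11, all above 0. The sign of this small ratio therefore went with the array and its dye orientation, and repeat spots did not lessen that difference. The other *Trp53* probe, at chr11:69393959-69394017, behaved alike: its log2 ratio was -0.10 on array 1 and 0.29 on array 2, with a mean of 0.09 ± 0.28.

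**Figure D2:**
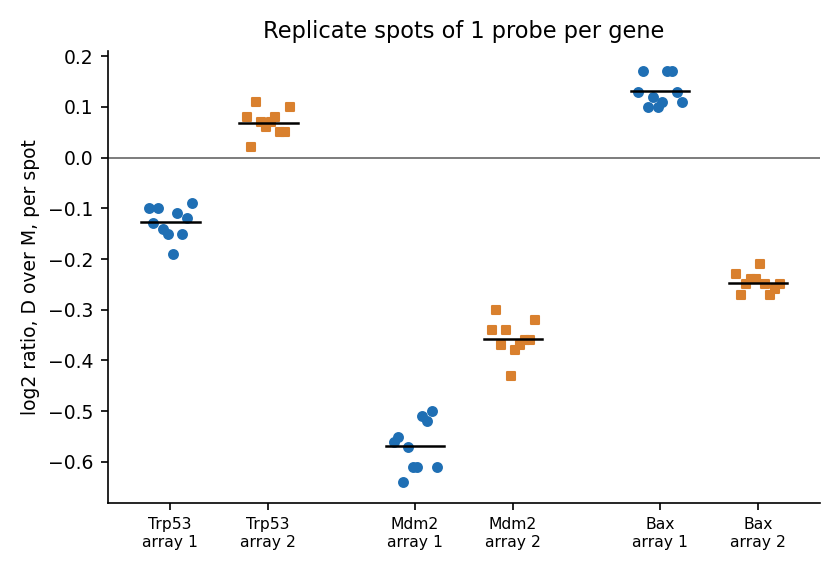
Log2 ratio, B16F1-GFP-D to B16F1-GFP-M (y axis), of each of the 10 spots of 1 probe of *Trp53*, *Mdm2* and *Bax* on array 1 (circles) and array 2 (squares), with black bars for the mean. The spots of *Mdm2* are all below 0, while those of *Trp53* and *Bax* change side between the arrays, in opposite directions.

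The ratios of the 3 genes whose products hold p53 in check were all below 0 on both arrays, by less than 2-fold. *Mdm2*, the ubiquitin ligase of p53 and its target, had levels of 9.74 and 9.63 in B16F1-GFP-M and of 9.44 and 9.22 in B16F1-GFP-D on arrays 1 and 2, for its brightest probe at chr10:117126278-117126337. The levels of the lines did not overlap, and the log2 ratio was -0.35 ± 0.07. The 10-spot probe shown above gave -0.57 on array 1 and -0.36 on array 2, with a mean of -0.46 ± 0.15 or 1.38-fold lower. All of its spots were below 0, from -0.64 to -0.50 on array 1 and from -0.43 to -0.30 on array 2. *Mdm2* was therefore lower in B16F1-GFP-D in every spot of both probes, although 20% of all detected genes had a still lower ratio than its brightest probe.

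*Mdm4*, which binds p53 and blocks its activation domain, was measured by 4 probes on chromosome 1, and all were below 0 on both arrays. The brightest, at chr1:134897893-134897952, had levels of 8.61 and 8.73 in B16F1-GFP-M against 8.00 and 8.08 in B16F1-GFP-D. Its log2 ratio was -0.63 ± 0.03, or 1.55-fold lower, and 7.71% of all detected genes had a lower ratio. The other probes were smaller in size, with means of -0.43, -0.38 and -0.28. The levels of the last of these were 6.93 and 6.92 in B16F1-GFP-M and 6.68 and 6.62 in B16F1-GFP-D, so that even this probe showed no overlap.

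*Ccng1* encodes cyclin G1, a p53 target that brings the phosphatase PP2A to Mdm2. Its brighter probe, at chr11:40562427-40562486, had levels of 10.65 and 10.59 in B16F1-GFP-M and of 10.19 and 10.12 in B16F1-GFP-D, a log2 ratio of -0.47 ± 0.01. The other probe, at chr11:40564413-40564472, gave -0.76 on array 1 and -0.63 on array 2, with a mean of -0.69 ± 0.09 or 1.61-fold lower. The arrays differed less than the 2 probes of this gene did.

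Of the 3 genes of mitochondrial apoptosis, *Bbc3* and *Bax* differed from each other, and *Pmaip1* was too dim to compare. *Bbc3*, which encodes Puma, a BH3-only protein that neutralizes the survival proteins of the Bcl-2 family, had a level of 10.58 on both arrays in B16F1-GFP-M and of 9.69 and 9.66 in B16F1-GFP-D, at chr7:16903403-16903462. The log2 ratio was -0.89 on array 1 and -0.92 on array 2, with a mean of -0.90 ± 0.02. *Bbc3* was thus 1.87-fold lower in B16F1-GFP-D, just short of the rule, and 3.21% of all detected genes had a lower ratio.

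*Bax* encodes the protein that forms pores in the outer mitochondrial membrane. The level of its probe was 11.36 on array 1 and 11.55 on array 2 in B16F1-GFP-M, and 11.49 and 11.30 in B16F1-GFP-D, so that the lines overlapped. The log2 ratio was 0.13 on array 1 and -0.25 on array 2, with a mean of -0.06 ± 0.27. The 10 spots had an SD of 0.03 on array 1 and 0.02 on array 2, far below the difference between the arrays: they ran from 0.10 to 0.17 on array 1 and from -0.27 to -0.21 on array 2. The ratio of *Bax* was above 0 on array 1 and that of *Trp53* on array 2, so the dye orientation did not move both probes the same way. *Pmaip1*, which encodes the BH3-only protein Noxa, was not well above background in either line, with levels of 5.96 and 5.85 in B16F1-GFP-M and 5.84 and 5.77 in B16F1-GFP-D, and no fold is given.

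**Figure D3:**
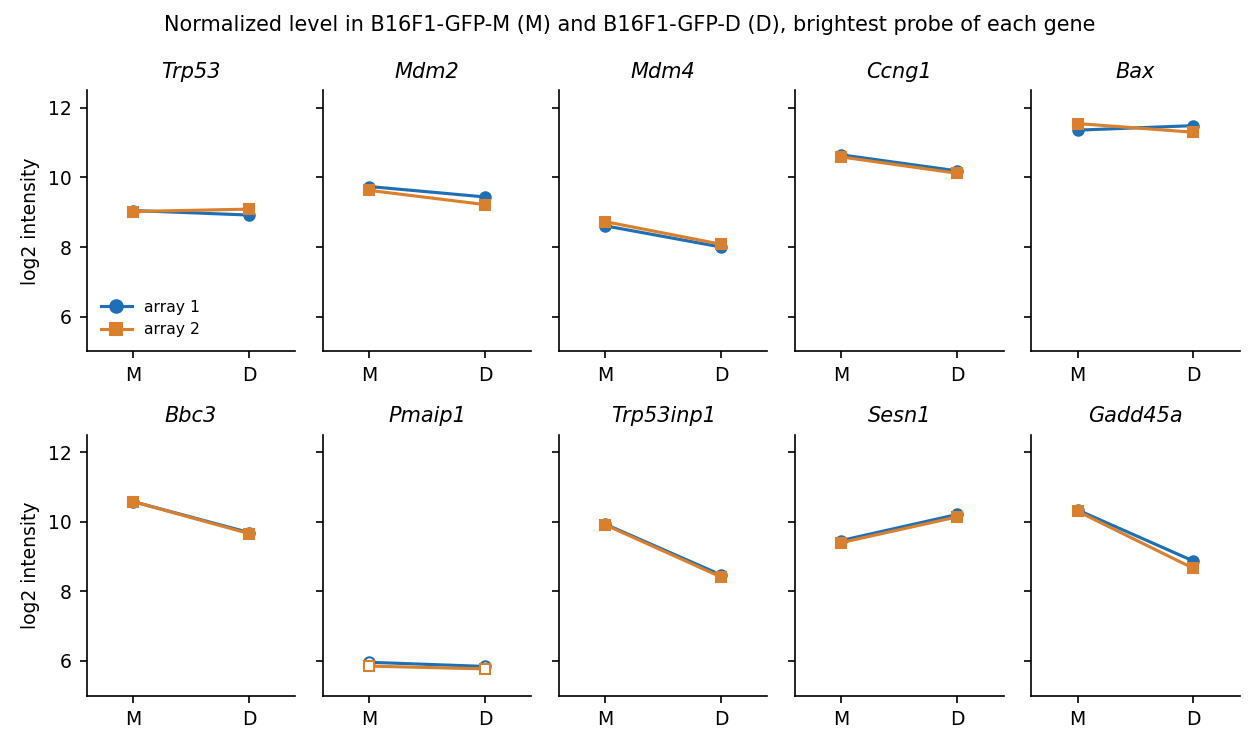
Normalized log2 intensity (y axis) of the brightest probe of each of the 10 genes in B16F1-GFP-M (M) and B16F1-GFP-D (D), joined by a line for array 1 (circles) and array 2 (squares); open symbols mark *Pmaip1*, which was not above background. The lines of *Gadd45a*, *Trp53inp1* and *Bbc3* drop in parallel on both arrays, that of *Sesn1* climbs, and those of *Trp53* and *Bax* cross.

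The stress response genes held both the lowest ratios and the single gene above 0 on both arrays among the 10 genes. *Gadd45a* encodes a small protein that binds PCNA and the kinase Cdk1 and takes part in growth arrest and DNA repair. Its probe, at chr6:66985376-66985435, had levels of 10.34 and 10.30 in B16F1-GFP-M and of 8.87 and 8.66 in B16F1-GFP-D. The log2 ratio was -1.47 on array 1 and -1.64 on array 2, with a mean of -1.56 ± 0.12. This was 2.94-fold lower in B16F1-GFP-D, and 0.51% of all detected genes had a lower ratio.

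*Trp53inp1* encodes a nuclear stress protein that promotes phosphorylation of p53 and, in the cytoplasm, autophagy. The brighter of its 2 probes, at chr4:11101174-11101233, had levels of 9.93 and 9.91 in B16F1-GFP-M and of 8.47 and 8.41 in B16F1-GFP-D, a mean log2 ratio of -1.48 ± 0.02. The other, at chr4:11098180-11098239, had -1.62 on array 1 and -1.31 on array 2. This probe repeats a unit of 26 bases head to tail.
Trp53inp1 probe unit: agtactaatacttaccacagcaggcg
With a mean of -1.46 ± 0.22 it gave the same result as the brighter probe, 2.76-fold against 2.79-fold lower. Between the lines, the levels were well apart for both probes.

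*Sesn1* encodes sestrin 1, which restrains the growth kinase complex mTORC1 when amino acids are short and helps to limit oxidative stress. Its brightest probe, at chr10:41628000-41628059, had levels of 9.46 and 9.40 in B16F1-GFP-M and of 10.21 and 10.14 in B16F1-GFP-D. The log2 ratio was 0.76 on array 1 and 0.74 on array 2, with a mean of 0.75 ± 0.01. *Sesn1* was thus 1.68-fold higher in B16F1-GFP-D, opposite in direction to the other genes whose sign held on both arrays, and 92.8% of all detected genes had a lower ratio. A dimmer probe, at chr10:41627097-41627156, gave 0.64 ± 0.23. The dimmest, whose genomic span of chr10:41618206-41622368 is far longer than the probe, gave 0.18 on array 1 and 0.10 on array 2. Its mean was 0.14 ± 0.06, and across the arrays its levels overlapped, 6.58 and 6.84 in B16F1-GFP-M and 6.77 and 6.94 in B16F1-GFP-D. The probes of *Sesn1* differed in size but not in sign.

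Several of the 10 genes belong to families, and in the GADD45 and sestrin families the relatives differed in direction. *Gadd45g* was called higher, with levels of 10.81 and 10.58 in B16F1-GFP-D against 8.56 and 8.55 in B16F1-GFP-M and a log2 ratio of 2.15 ± 0.16. *Gadd45b* had a ratio of 0.88 ± 0.13, its other probe one of 0.45, and the ratio of the scanner software was 1.36. The GADD45 family thus ran from -1.56 to 2.15 in these lines. In the sestrin family *Sesn2* was called lower, with a log2 ratio of -1.36 ± 0.13 and levels of 11.07 and 11.02 in B16F1-GFP-D against 12.34 and 12.47 in B16F1-GFP-M, while *Sesn3* had -0.33 ± 0.14 beside the 0.75 of *Sesn1*. The other probe of *Sesn2* gave -0.77, and its call was lost with median centring. *Ccng2*, which encodes cyclin G2, had 0.29 ± 0.26. *Bak1* had 0.44 ± 0.09 and *Bok* 0.17 ± 0.10, both relatives of *Bax* among the pore-forming proteins. *Trp53inp2* had 0.10 ± 0.03. Of the genes for the p53 relatives p63 and p73, *Trp63* was not detected in either line, and *Trp73* was well above background in B16F1-GFP-M only, which gave no bound on its ratio.

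Regulators of p53 other than the genes above showed no 2-fold difference. All 8 genes of p53 turnover were detected, among them ubiquitin ligases and the deubiquitinase *Usp7*. On both arrays 5 were below 0 and 2 above 0, against 42.8% and 41% of all detected genes. The median of the 8 was -0.15, or 0.03 with the median of each gene's probes. They ran from -0.38 for the ligase *Rchy1* to 0.14 for *Usp7*, with *Cop1* at -0.24 and *Huwe1* at 0.12. Of 18 genes for kinases that activate p53 and for its cofactors, 17 were detected, 7 above 0 and 7 below 0 on both arrays. Their median was -0.00. The highest was *Chek1*, the checkpoint kinase of DNA replication, with 0.85 on array 1 and 1.12 on array 2 and 0.45 on its other probe; with the ratio of the scanner software it had 1.92. *Chek2*, the next, had 0.36. The lowest were *Daxx* with -0.66 and the acetyltransferase gene *Crebbp* with -0.45. *Cdkn2a*, whose product Arf inhibits Mdm2, was not above background in either line on its single probe.

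A wider set of p53 targets was described next to the 10 genes. Of 58 further targets on the arrays, from 4 lists for arrest and growth, apoptosis, metabolism and DNA repair, 47 were detected. On both arrays 20 of them were above 0 and 20 below 0, against 41% and 42.8% of all detected genes. The others had opposite signs, and the median was 0.03. One was called in each direction, *Pcna* higher and *Sesn2* lower, against 3.09% of all detected genes higher and 1.94% lower. Both calls were lost with median centring. The 6 of 9 detected genes below 0 thus stood beside an even split in the wider set, close to that of all detected genes. That difference was not tested.

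Among the targets for arrest and growth, 12 of 17 were detected, with a median of -0.19, and none was called. *Cdkn1a*, which encodes the cyclin-dependent kinase inhibitor p21 and is the best-known p53 target for arrest, had levels of 11.82 and 11.72 in B16F1-GFP-M and of 11.00 and 10.99 in B16F1-GFP-D, without overlap, and a log2 ratio of -0.77 ± 0.06. *Zmat3*, a p53 target that binds RNA, had -0.99 on array 1 and -1.11 on array 2 and missed the rule on array 1 alone. With the ratio of the scanner software *Zmat3* had -1.21, and its other probe was not above background. At the upper end were *Ckap2* and *Sfn*. *Ckap2*, a gene of the mitotic spindle, had 0.88 ± 0.04, and 1.29 with the ratio of the scanner software. *Sfn*, which encodes 14-3-3 sigma, had 0.81 ± 0.28 on the single one of its 3 probes that was above background. The median of the 3 probes of *Sfn* was -0.02.

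Among the apoptosis targets, 13 of 17 were detected, with a median of 0.15, and none was called. *Phlda3*, an inhibitor of the kinase Akt, had -0.87 ± 0.05 and *Tnfrsf12a* -0.83 ± 0.41, while *Pmp22* had 0.80 ± 0.13 and *Siva1* 0.58 ± 0.19. The other probe of *Pmp22* was not above background and gave -0.11. The death receptor gene *Fas* was not detected. Of 14 targets for metabolism and redox balance on the arrays, 13 were detected, with a median of -0.06. *Sesn2* was lower as given above, *Dcxr* had -0.77 on its brightest probe but -0.44 and 0.22 on the others, and *Gls2*, the glutaminase gene known as a p53 target, had 0.52 ± 0.20 and 1.05 with the ratio of the scanner software. *Prkab1* had 0.39 ± 0.28. Of 10 DNA repair targets, 9 were detected, with a median of 0.05. *Pcna*, the sliding clamp of DNA replication, rose by 1.52 on array 1 and by 2.07 on array 2. *Polk*, a polymerase for damaged templates, had -0.94 ± 0.03 and -1.27 with the ratio of the scanner software, while its other probe was not above background and gave -0.12. *Rrm2b*, the p53-induced subunit of ribonucleotide reductase, had -0.17 on array 1 and -0.43 on array 2. It was not well above background in B16F1-GFP-D, and the bound from the mean of the arrays was 1.17-fold lower there. The ratio of the scanner software for *Rrm2b* was -1.71.

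**Figure D4:**
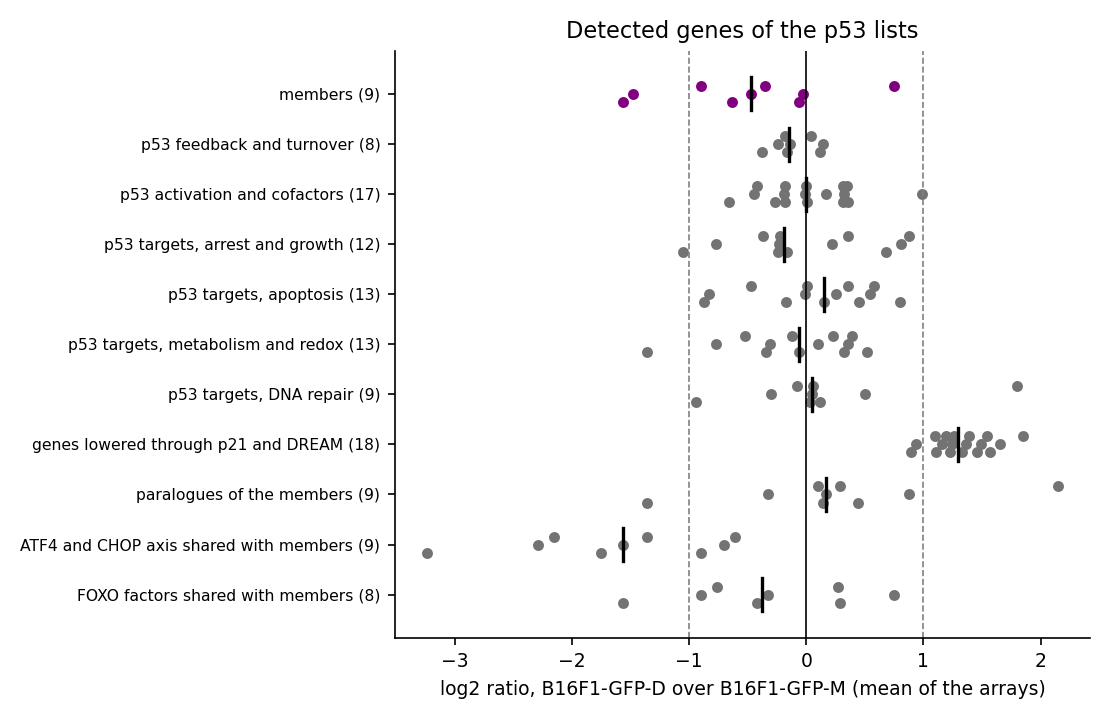
Mean log2 ratio, B16F1-GFP-D to B16F1-GFP-M (x axis), of each detected gene in the lists described here (rows, number of detected genes in brackets; members are the 9 detected genes of the 10); black bars are medians and dashed lines mark 2-fold. The targets of the wider lists lie on both sides of 0, the genes lowered through p21 and DREAM lie to the right with a median of 1.30, and the genes of the ATF4 and CHOP axis to the left with a median of -1.56. The axis list includes *Gadd45a* and *Bbc3*, which are also among the members.

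Genes that p53 lowers indirectly, through p21 and the repressor complex DREAM, were on the higher side in B16F1-GFP-D. Of the 18 genes of this list, 14 were called higher (1 with median centring), against 3.09% of all detected genes. Each of the 18 was above 0 on both arrays, against 41% of all detected genes, with a median of 1.30. They ran from 0.89 for *Cdca8* to 1.85 for *Aurkb*, both of the chromosomal passenger complex, and *Cdk1*, the kinase of mitotic entry, had 1.65 ± 0.11. The other probe of *Cdk1* was not above background and gave 0.18, so that the median of its probes was 0.91, short of 2-fold, and with the median of each gene's probes 10 genes of the list were called. *Cdc20*, *Cks1b*, *Foxm1* and *Cdca8* did not pass the rule on both arrays. These are also general genes of proliferating cells.

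*Gadd45a*, *Bbc3* and *Pmaip1* are also known targets of the stress factors ATF4 and CHOP. All 9 detected genes of a list for this axis were below 0 on both arrays, against 42.8% of all detected genes, with a median of -1.56. Of the 9, 6 were called lower (1 with median centring), against 1.94% of all detected genes. The list holds *Gadd45a* and *Bbc3* themselves, and its median is the value of *Gadd45a*. The largest decreases were those of *Trib3* with -3.24 ± 0.31 and of *Ddit3*, which encodes CHOP, with -2.29 ± 0.01. *Chac1* fell by 2.15 and *Ddit4* fell by 1.75 on the log2 scale, and *Gadd45a* and *Sesn2* made up the rest. *Atf4* itself had -0.70 ± 0.16 and *Atf3* -0.61 ± 0.24. A list of 10 genes for the FOXO factors holds *Foxo1*, *Foxo3* and *Foxo4* themselves. It also holds *Sesn1*, *Bbc3* and *Gadd45a*, which are among the members and enter its median. Of the 10, 8 were detected, with a median of -0.37, and its only call was that of *Gadd45a*. *Foxo1* had -0.42 ± 0.06, *Bcl6* -0.76 ± 0.33 and *Bcl2l11* 0.27 ± 0.27, and *Foxo3* and *Foxo4* were not detected. Values of the 3 regulators were thus given side by side, and the part of each in the levels of *Gadd45a*, *Bbc3* and *Sesn1* was not tested.

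**Figure D5:**
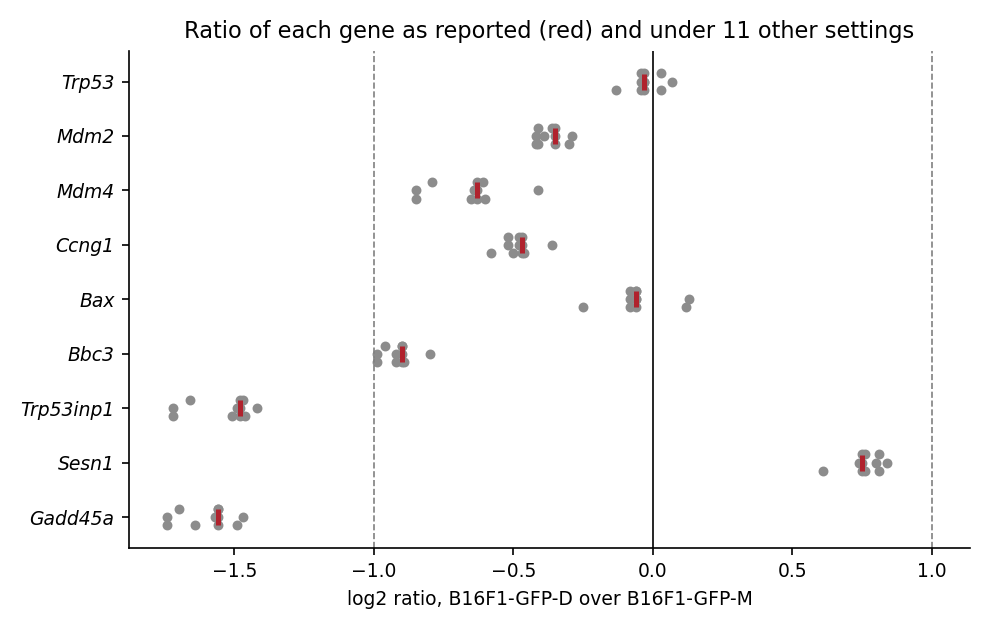
Log2 ratio, B16F1-GFP-D to B16F1-GFP-M (x axis), of the 9 detected genes (rows) as reported (red) and under 11 other ways to process the arrays (grey); dashed lines mark 2-fold. *Gadd45a* and *Trp53inp1* stay beyond 2-fold in the mean, *Mdm2*, *Mdm4*, *Ccng1* and *Bbc3* between 0 and 2-fold lower, *Sesn1* above 0, and *Trp53* and *Bax* on both sides of 0.

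The values of the detected genes were compared over 11 other ways to process the arrays. *Gadd45a* lay between -1.74 and -1.47, *Trp53inp1* between -1.72 and -1.42, *Bbc3* between -0.99 and -0.80 and *Sesn1* between 0.61 and 0.84. *Mdm2* lay between -0.42 and -0.29 and *Ccng1* between -0.58 and -0.36. *Mdm4* varied most among the genes with a constant sign, from -0.85 with the ratio of the scanner software to -0.41 with the median of its probes. *Trp53*, from -0.13 to 0.07, and *Bax*, from -0.25 to 0.13, changed sign with the array used and with the processing. With median centring *Trp53* had 0.03 and *Bax* 0.12, and with the median of its probes *Trp53* had 0.03.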

How the data were processed

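The 2 melanoma lines were compared on 2 arrays with exchanged dyes. The authors' scanner software, Agilent Feature Extraction 10.7.3.1, measured the mean intensity and the local background intensity of each spot, and these deposited values are not normalized. The deposited log10 ratios of Cy5 over Cy3 and the series table of log10 ratios, background-subtracted and dye-normalized by the same software, served as alternatives.

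In R 4.3.3 with limma 3.58.1, 43379 spots that are not controls were background-corrected (normexp, offset 50) and loess-normalized per array, with control spots and outlier spots (143 and 176) at weight 0 and the outliers left out. Each log2 ratio was given the sign that puts B16F1-GFP-D in the numerator, and spots of a probe were averaged. Levels per line came from Aquantile scaling. The offset draws ratios of dim spots towards 0. Well above background in a line were 44.1% to 60.7% of the spots on an array, the median ratio of signal to background was between 1.66 and 2.6, and none was saturated. The number of arrays limits the precision. A gene was read from its brightest probe and called at 2-fold on both arrays.

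Symbols came from the array files and from RefSeq accessions, of which those of 27198 probes matched the GRCm38.p6 table. The 10 genes, the 10 gene lists and 7 marker lists were chosen with earlier results of these data known. Named were all 10 genes with every probe, all paralogues, and of each list the called genes and the highest and lowest 2 detected ones; *Cdkn2a*, *Fas*, *Cdc20*, *Foxm1*, *Foxo1*, *Foxo3*, *Foxo4*, *Bcl6*, *Bcl2l11* and the cell type markers were named beyond that rule after their values were seen, and of the list lowered through p21 and DREAM only some called genes were named. For 1 gene of the DNA repair list, the value is not reported here. The procedure was tested on simulated data. Other steps used Python 3.11.15 (pandas 2.3.3, numpy 2.4.6, matplotlib 3.10.9).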

Additional observations from a re-analysis of the deposited data

How the results depend on the processing

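Of the 10 genes, 2 were called lower and 0 higher with other background corrections, the software's ratio or the series table, stricter or no filtering of dim probes, the median of the probes, Aquantile scaling and each array alone. Median centring in place of loess called 0 lower, and a limit of 1.5-fold 4 lower and 1 higher. Over all detected genes, 387 were called higher and 243 lower, against 758 and 597 with the software's ratio, 757 and 594 with the series table, 635 and 442 with an offset of 0, and 45 and 19 with median centring. The lines were paired on each array, but with 1 replicate per line no test across replicates was possible. The dim probe of *Pmaip1* lay between -1.02 with an offset of 0 and 0.00 with the software's ratio.

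For the lists, median centring left 1 of the 14 calls of the genes lowered through p21 and DREAM, 1 of the 6 of the ATF4 and CHOP axis, 0 calls lower in the metabolism, FOXO and paralogue lists and 0 higher in the DNA repair list. The lists share genes: the call lost was *Sesn2* in both the metabolism and paralogue lists, and *Gadd45a* in the FOXO list. Both genes are also on the ATF4 and CHOP list. Median centring moved the medians to -0.08 for turnover, 0.13 for activation, -0.09 for arrest, 1.47 for DREAM and 0.30 for paralogues. The software's ratio and the series table gave alike 1 activation gene higher, 2 arrest genes lower and 1 higher, 2 repair genes lower and 2 paralogues higher, with medians of -0.21 for turnover, 1.43 for DREAM, 0.33 for paralogues and -1.74 for ATF4 and CHOP. An offset of 0 gave 1 activation gene higher, 1 arrest gene lower and 1 higher, 1 repair gene lower and 2 paralogues higher, with medians of 0.30 for paralogues and -1.70 for ATF4 and CHOP. A limit of 1.5-fold called 1 activation gene higher, 2 arrest genes higher and 2 lower, 1 apoptosis gene in each direction, 2 metabolism genes lower, 1 repair gene lower, 2 paralogues higher, and 2 FOXO genes lower and 1 higher. With the median of the probes the median was 0.03 for turnover and -0.25 for FOXO, and without a filter on dim probes -0.04 for arrest and -0.20 for FOXO. Array 1 alone gave medians of -0.09 for arrest and -0.24 for FOXO. Array 2 alone gave -0.09 for turnover, -0.04 for arrest, 0.07 for metabolism and -0.14 for FOXO, and called 1 activation gene higher, 1 arrest gene in each direction and 1 apoptosis gene lower.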
